A study of Mus musculus with 2 samples.

Results

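In the single-cell library from mouse fungiform papillae, 7 of 29 cell barcodes carried the genes of stratified lingual epithelium in place of those of taste cells, and they are described here beside the 21 gustducin taste cells of the same library. The library held fluorescent cells sorted from adult mice of the alpha-gustducin-GFP strain on a C57BL/6J background, in which GFP marks cells that use alpha-gustducin. A second library, from the circumvallate papilla of mice of the same strain and stage, brought the series to 90 barcodes. The design has no treatment, and each papilla type had 1 library, so the text compares cells of 1 library and gives no test. Per the labels, the sort kept single, GFP-bright cells that did not take up 7-AAD, a dye of dead cells. Neither table has a row for GFP, so the reporter could not be read in these cells. The sources used here do not say how many mice made up a library.

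The dorsal tongue is covered by a stratified squamous epithelium whose basal cells divide and whose suprabasal cells build dense keratin filaments, desmosomes and, at the surface, a protein and lipid envelope. Taste buds sit within that epithelium and are made of elongated cells with simple-epithelium keratins. Their type II cells detect sweet, umami or bitter compounds through G-protein-coupled receptors, and gustducin, the G protein whose alpha subunit is Gnat3, relays the signal to phospholipase C beta 2 and the channel Trpm5.

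Members were selected on 2 measured quantities. Keratinocyte-like cells were chosen by Krt13 plus Krt6a of at least 1000 CPM (the gene's counts × 1000000/the cell's total counts). Gustducin cells needed more than 500 detected genes, ln(1 + 10000 × Gnat3/total) above 0.9 and less than 1000 CPM of both keratins. These values describe the choice and support nothing else. Krt13 plus Krt6a was 28252, 56339 and 78219 CPM in the lowest, median and highest of the 7 cells. In the 21 gustducin cells it was 64.4, 79.3 and 191 CPM, so no cell lay near the limit. Gnat3 was 3.26, 9.92 and 14.3 CPM in the 7 cells and 377, 5320 and 8800 CPM in the 21. The 1 remaining barcode had 83.3 CPM of the keratins and 67.4 CPM of Gnat3, or 0.515 on the ln scale, and 66.0% of its counts were mitochondrial. The 7 cells were 24.1% of the library (exact Clopper-Pearson 95% interval 10.3 to 43.5%, for counting error only). In the circumvallate library 1 of 61 barcodes met the keratin limit, or 1.64% (0.0415 to 8.80%).

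**Figure D1:**
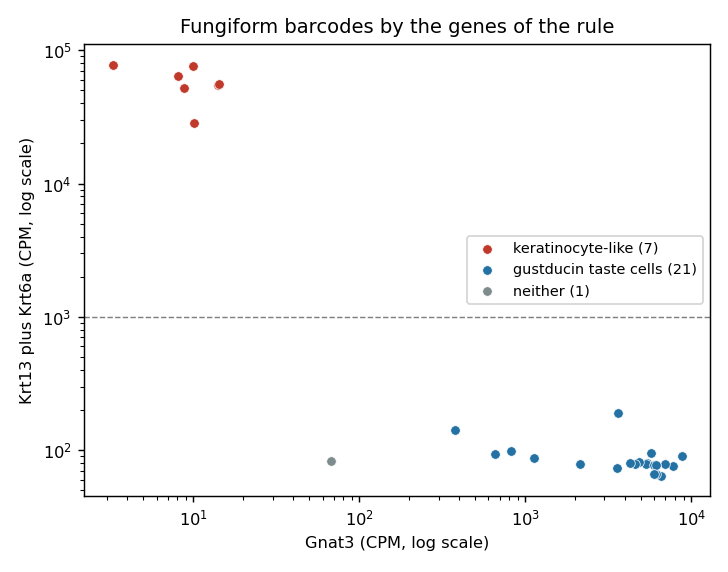
Each point is 1 of the 29 fungiform barcodes, with Gnat3 in CPM on the x axis and Krt13 plus Krt6a in CPM on the y axis, both on log scales, and a dashed line at the limit of 1000 CPM. The 7 keratinocyte-like cells lie at or above 28252 CPM and the 21 gustducin cells at or below 191 CPM.

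Depth overlapped between the sides but differed among the 7 cells. The 7 cells had 201535, 1679949 and 4078945 counts (lowest, median and highest) and the gustducin cells 193718, 1141644 and 3190340. Detected genes numbered 1375, 5749 and 8833 in the 7 cells and 1887, 6480 and 10093 in the gustducin cells. Mitochondrial counts made up 3.52, 5.64 and 16.1% of the 7 cells and 8.17, 11.1 and 68.0% of the gustducin cells. Of 16 listed keratinocyte markers, 9 to 13 reached 50 CPM in each of the 7 cells, against 0 to 5 in a gustducin cell. Of 11 gustducin-cell markers, at most 1 reached 50 CPM in any of the 7 cells (Itpr3, the inositol trisphosphate receptor of type II cells, with 79.8 CPM), against 4 to 11 in a gustducin cell. These markers include Krt13, Krt6a and Gnat3, which the rule used, so the counts are partly set by the choice. All 7 cells also carried keratinocyte markers that the rule did not use. Krt76, one of the markers that came with the label keratinocyte-like, was high in 3 of them only. No barcode was high on both sides, and no doublet caller was run.

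The promoters of 3 genes are shown because the results turn on them: Krtdap led the genes found in all 7 cells, Lor was high in the 3 Krt76 cells, and Gnat3 defined the other side. Each line holds the 250 bases before the RefSeq transcription start (build GRCm38.p6), 5′ to 3′ on the gene's strand. Capitals mark the AP-1 motif (TGA and TCA with any 1 base between them) and the TATA motif (TATAAA), both searched on either strand.
Krtdap, chr7:30787655-30787904, plus strand: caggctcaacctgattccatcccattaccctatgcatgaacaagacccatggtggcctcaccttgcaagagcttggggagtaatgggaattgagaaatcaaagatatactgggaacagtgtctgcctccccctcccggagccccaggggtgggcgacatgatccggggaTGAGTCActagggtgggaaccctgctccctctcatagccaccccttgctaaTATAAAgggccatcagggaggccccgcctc
Lor, chr3:92083143-92083392, minus strand: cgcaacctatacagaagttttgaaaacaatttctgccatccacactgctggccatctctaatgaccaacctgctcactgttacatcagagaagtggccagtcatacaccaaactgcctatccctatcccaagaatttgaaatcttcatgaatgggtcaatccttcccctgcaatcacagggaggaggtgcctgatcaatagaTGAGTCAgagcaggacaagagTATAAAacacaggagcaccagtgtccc
Gnat3, chr5:17962320-17962569, plus strand: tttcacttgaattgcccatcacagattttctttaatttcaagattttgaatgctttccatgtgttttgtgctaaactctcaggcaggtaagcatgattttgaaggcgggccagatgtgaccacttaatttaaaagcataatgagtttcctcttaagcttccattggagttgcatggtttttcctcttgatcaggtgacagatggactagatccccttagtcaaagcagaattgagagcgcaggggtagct

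Across all genes, 1455 had a median of at least 50 CPM over the cells of either side. Of these, 437 were at least 4-fold higher in the median keratinocyte-like cell, a share of 30% of the genes compared. A further 521, or 35.8%, were at least 4-fold higher in the median gustducin cell. Ratios are of medians after adding 10 CPM, on a log2 scale, so low genes change by more than their ratios show. The median log2 ratio over the 1455 genes was 0.10. The genes that pass the limit of 50 CPM change with the cells and the average used. Without the 3 Krt76 cells, whose totals were all under 500000 counts, 2313 genes passed, of which 1226 (53%) were higher in the keratinocyte-like and 302 (13.1%) in the gustducin cells. With a mean over cells in place of the median, 4494 genes passed, and 544 (12.1%) and 1535 (34.2%) were higher. The stricter count asked that the lowest cell of the higher side exceed the highest cell of the other. It left 33 genes for the keratinocyte-like cells (2.27%) and 13 for the gustducin cells (0.893%). Without the Krt42 cell described below the 33 became 51 of 1430 genes, and without the 3 Krt76 cells they became 83 of 2313. Without the cells of over 50% mitochondrial counts the 13 became 29 of 1622.

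Krtdap, a secreted keratinocyte differentiation protein, had the largest ratio of the genes with no overlap. It stood at 4960, 2202, 13258 and 7648 CPM in the Krt5, Krt42, Krt4 and Krt14 cells. In the 3 Krt76 cells it was 15559, 20697 and 26670 CPM. Each cell was named by whichever of Krt5, Krt42, Krt4, Krt14 and Krt76 was highest in it. In the gustducin cells Krtdap was 7.58, 13.1 and 46.5 CPM (lowest, median, highest). The lowest of the 7 cells was thus far above the highest of the 21, and the log2 ratio of medians was 9.16. Dmkn, dermokine, another secreted protein of suprabasal cells, was 1774, 4577 and 9964 CPM in the 7 cells and at most 25.8 CPM in a gustducin cell. Pooled over the cells of a side it was 3959 CPM (exact Poisson 95% interval 3923 to 3995) and 5.83 CPM (4.88 to 6.91), intervals that cover counting error only. Sbsn, suprabasin, was 314, 1446 and 5924 CPM against at most 218 CPM. RNA of all 3 genes was thus counted in each of the 7 cells whatever keratins it carried.

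Fabp5, the epidermal fatty acid binding protein, was 1691, 4832 and 7181 CPM in the 7 cells and 0, 7.31 and 92.6 CPM in the gustducin cells (log2 ratio 8.13). Ly6d, a GPI-anchored protein of squamous epithelium, was 3175, 4748 and 11368 CPM against at most 527 CPM. Sfn, the stratified-epithelium 14-3-3 protein, was 1204, 2789 and 4980 CPM against at most 207 CPM. None of these 3 genes overlapped between the sides.

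The calcium-binding proteins S100a14 and S100a16 had medians of 2195 and 1609 CPM in the 7 cells and of 5.92 and 5.45 CPM in the gustducin cells. Calm4, a calmodulin-like protein of skin, had medians of 1344 and 2.72 CPM. Spink5, an inhibitor of the kallikrein proteases of the stratified epithelium, kept a narrow range of 1054 to 2727 CPM in the 7 cells and did not exceed 10.3 CPM in the 21. Aqp3, a channel for water and glycerol, was 130 to 2086 CPM against at most 10.5 CPM, and Anxa8, an annexin, 117 to 2492 CPM against at most 6.28 CPM. Fam25c, Them5 and Psapl1 completed the 15 named for the keratinocyte-like cells, with medians of 6886, 896 and 890 CPM there. The other genes with no overlap were Krt6a, which the rule used, and Hopx, Ly6g6c, Avpi1, Perp, Klk13, Ces2g, Dynll1, Plbd1, 4 gene models and 5 ribosomal protein genes, described below. With every cell thinned to 193718 counts, 28 of 1455 genes had no overlap.

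On the gustducin side, Gnb3, the beta subunit that pairs with gustducin, led with 540, 6077 and 11226 CPM in the 21 cells and 18.4 to 44.7 CPM in the 7 (log2 ratio -7.69). Gng13, the gamma subunit, was 28.4, 3031 and 5009 CPM against at most 16.4 CPM. Plcb2, the phospholipase of the cascade, was 237, 2428 and 7137 CPM against at most 16.3 CPM. Anxa4 separated the sides widely, with 1481, 3213 and 5206 CPM in the gustducin cells against 161 CPM in the Krt5 cell and at most 10.0 CPM in the other 6. Krt8, a simple-epithelium keratin, had medians of 3735 and 10.3 CPM and nearly met between the sides, since the lowest gustducin cell had 18.9 CPM and the highest of the 7 cells 11.6 CPM. Lrmp, Atp2a3, Ovol3, Fxyd6, Pirt and Plk2 also had no overlap, as did Gnat3, which the rule used. With thinned cells, 8 of 1455 genes were higher on the gustducin side with no overlap. The circumvallate gustducin cells, which shared no barcode number with this library, had no overlap with the same 7 cells for 16 of the 33 genes (30 were listed there) and for 1 of the 13. That comparison shares the 7 cells with the one above. Over all genes, 1153 passed the limit of 50 CPM in the circumvallate comparison. With no overlap, 38 of the 1153 were at least 4-fold higher in the 7 cells and 1 in the circumvallate gustducin cells. In this comparison over all genes, a gene not listed for the circumvallate library was taken as absent from its cells.

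**Figure D2:**
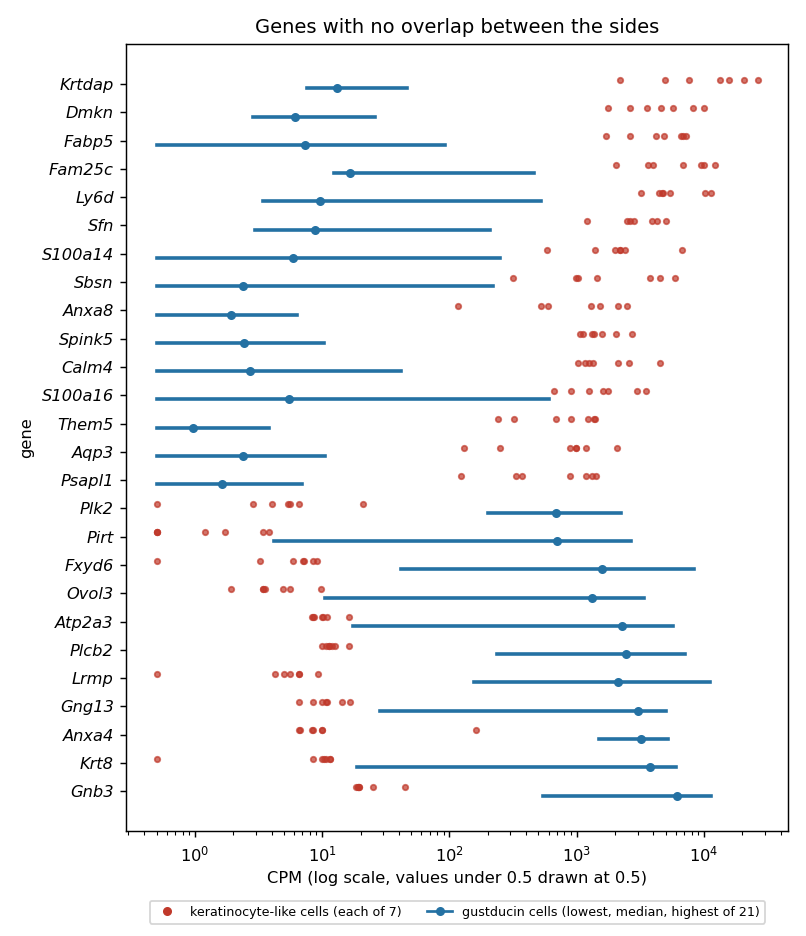
CPM on a log x axis for the 15 and 11 named genes with no overlap between the sides and a log2 ratio of at least 5 in size; red points are the 7 keratinocyte-like cells, and a blue line runs from the lowest to the highest of the 21 gustducin cells with a point at the median. Krtdap is at least 2202 CPM in every red point and at most 46.5 CPM along the blue line.

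The keratins separated the 7 cells from each other. Of 30 keratin genes listed, 18 reached 1000 CPM in at least 1 of the 7 cells, and 10 of the 18 did so in exactly 1 cell. Keratins made up 4.90 to 13.3% of the counts of the 7 cells and at most 1.49% of those of the gustducin cells. The names below were given after these values were seen. The genes lie in the type I keratin cluster (Krt13 at chr11:100117327-100121566, Krt42 at chr11:100262882-100269871 and Krt14 at chr11:100203162-100207548, mm10, GENCODE M21) and the type II cluster (Krt6a at chr15:101689910-101694307, Krt5 at chr15:101707070-101712898, Krt76 at chr15:101884351-101892920 and Krt4 at chr15:101918535-101924735).

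The Krt5 cell, the deepest of the 7, had 35003 CPM of Krt6a, 29449 CPM of Krt13 and 6009 CPM of Krt5, the type II keratin of basal cells. Krt14, the usual partner of Krt5, was 6.13 CPM there. Mt4, the metallothionein of stratified squamous epithelium, took 18232 CPM of this cell. Mt4 was also high in the Krt4 cell (17838 CPM) and the Krt14 cell (13386 CPM). The Krt5 cell was the only one of the 7 with the fibroblast gene Dcn, decorin, at 1382 CPM. In the other 6 Dcn was at most 0.625 CPM.

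The Krt42 cell had 59364 CPM of Krt42 and 13298 CPM of Krt75 beside 52537 CPM of Krt6a. Neither Krt42 nor Krt75 exceeded 19.6 CPM in the other 6 cells. Krt13 was only 22.8 CPM in this cell, within the 15.2 to 82.6 CPM of the gustducin cells, so Krt6a alone brought it past the limit. Its next genes were Aldh3a1, an aldehyde dehydrogenase, with 22372 CPM, the fetuin Fetub with 18013 CPM and Tgm3, a transglutaminase of the cornified envelope, with 14824 CPM. It was also the only one of the 7 at or above 50 CPM of Foxe1, a forkhead gene (606 CPM). Foxe1 was not particular to it, since 12 gustducin cells reached 50 CPM, with a median of 61.3 and a highest of 540 CPM. Epcam, an adhesion protein of simple epithelium and taste buds, was 396 CPM in the Krt42 cell and at most 6.53 CPM in the other 6. Sox2, a factor of taste bud progenitors and lingual epithelium, was 1304 CPM in the Krt42 cell, 133 CPM in the Krt4 cell and at most 3.57 CPM in the other 5.

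The Krt4 cell had 28037 CPM of Krt13 and 19714 CPM of Krt4, the keratin pair of the suprabasal layers of internal squamous epithelium. Krt4 was at most 8.42 CPM in the other 6 cells. Krt6a was only 216 CPM here, and Krt13 brought the cell past the limit. Its mitochondrial share of 16.1% was the highest of the 7.

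The Krt14 cell had 56306 CPM of Krt6a, 27279 CPM of Krt14 and 11243 CPM of Krt16. It alone held the hair-type keratins Krt36 (11236 CPM) and Krt35 (3032 CPM), and Krt10, a keratin of cornifying epidermis, was 7011 CPM. Krt17 was 3292 CPM in the Krt14 cell, 525 CPM in the Krt42 cell and at most 0.955 CPM elsewhere. Krt5 was 4.76 CPM in the Krt14 cell, so the 2 basal keratins Krt5 and Krt14 were never both high in a cell. Krt13 was 32.7 CPM.

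The 3 Krt76 cells resembled each other. Krt76, a type II keratin of oral epithelium, was 32013, 33488 and 28933 CPM in them and 5.25 to 5.95 CPM in the other 4. Krt13 was 41839, 62489 and 57876 CPM and Krt16 11077, 9844 and 15308 CPM. Krt6a was 13272, 15731 and 18830 CPM, lower than in the Krt5, Krt42 and Krt14 cells. The 7 cells thus held a minimum of 5 distinct keratin profiles, of which 4 were seen in a single cell each.

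**Figure D3:**
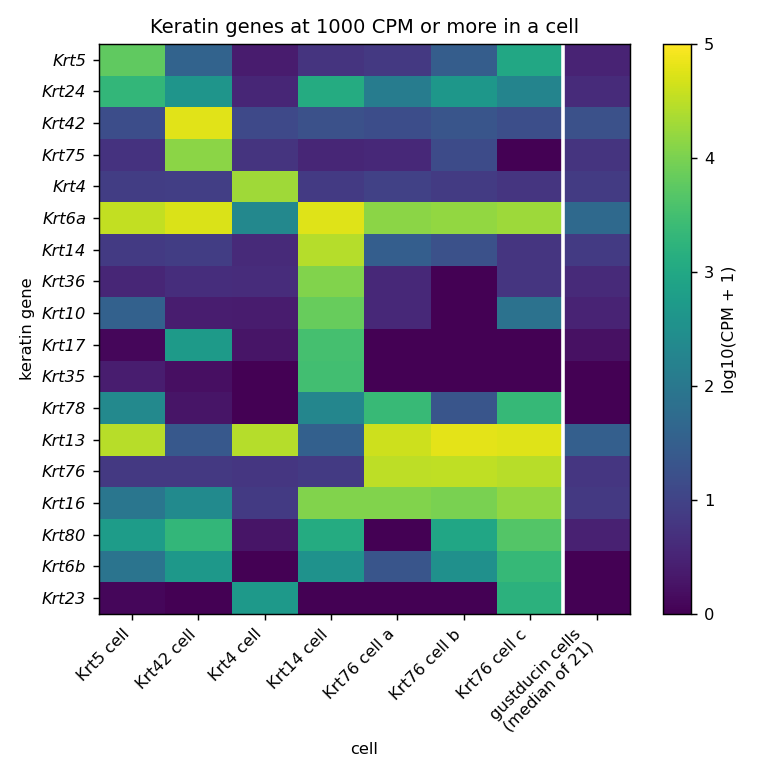
Rows are the 18 keratin genes that reached 1000 CPM in a keratinocyte-like cell, columns are the 7 cells and the median of the 21 gustducin cells, and colour is log10(CPM + 1). Krt42, Krt4 and Krt14 are each bright in 1 column and Krt76 in 3.

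Genes other than keratins set the 3 Krt76 cells apart in the same way. Lyg1, a goose-type lysozyme gene at chr1:37946736-37957759, was 45052, 35377 and 47709 CPM in them and at most 7.16 CPM in the other 4. Lor (chr3:92080271-92083142), loricrin, the main protein of the cornified envelope, was 29516, 30156 and 15451 CPM against 3.57 to 86.4 CPM. Slpi, a secreted inhibitor of leukocyte proteases, was 5335, 3805 and 7954 CPM against at most 0.938 CPM. The lowest Krt76 cell was far above the highest of the other 4 for each of these 3 genes.

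Several further genes of the Krt76 cells lie with Lor in the epidermal differentiation complex of chromosome 3. Rptn, repetin, was 3755, 2646 and 2461 CPM against at most 3.34 CPM in the other 4 cells. Crnn, cornulin, was 5750, 5188 and 3558 CPM against 870 CPM in the Krt14 cell and at most 0.981 CPM in the remaining 3. Sprr1b, a small proline-rich envelope protein, was 7044, 6105 and 5994 CPM against 2650 CPM in the Krt14 cell and at most 2.45 CPM in the remaining 3. The Krt14 cell thus held part of this set without Lor, which was 3.57 CPM there.

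Secreted defence and cytokine genes followed the same cells. Defb4, a beta-defensin, was 6752, 3978 and 1672 CPM in the Krt76 cells and 293 CPM in the Krt14 cell. Slurp1, a secreted Ly6-family protein, was 5344, 3537 and 4883 CPM against at most 267 CPM. Il1f6, an interleukin-1 family cytokine, was 1072, 405 and 2967 CPM and Il1rn, the interleukin-1 receptor antagonist, 544, 963 and 1087 CPM. Neither cytokine gene passed 1 CPM in the other 4 cells.

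In all, 25 genes were higher in each Krt76 cell than in any of the other 4 by 4-fold or more in the medians, and 698 were lower, of 2018 compared. These counts come from groups chosen on the cells' own genes and are a description. Depth moved with them: the Krt76 cells had 201535 to 356319 counts and the other 4 had 1679949 or more. Thinned to 193718 counts, the Krt76 cells still had 1358 to 1560 genes and the other 4 had 3635 to 5098, and 25 of the higher and 466 of the lower genes remained. Gustducin cells had 1799 to 6335 genes at that depth. Genes lower in the Krt76 cells included S100a11, at 0 counts in all 3 against 576 to 1377 CPM, Gja1, a gap junction protein, at 0 against 446 to 757 CPM, and Ldha, lactate dehydrogenase A, at 0 against 327 to 1384 CPM. Emp2, a membrane protein, was at most 9.92 CPM against 992 to 1362 CPM. The part of cell state or RNA quality in the fewer genes of these cells was not tested.

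**Figure D4:**
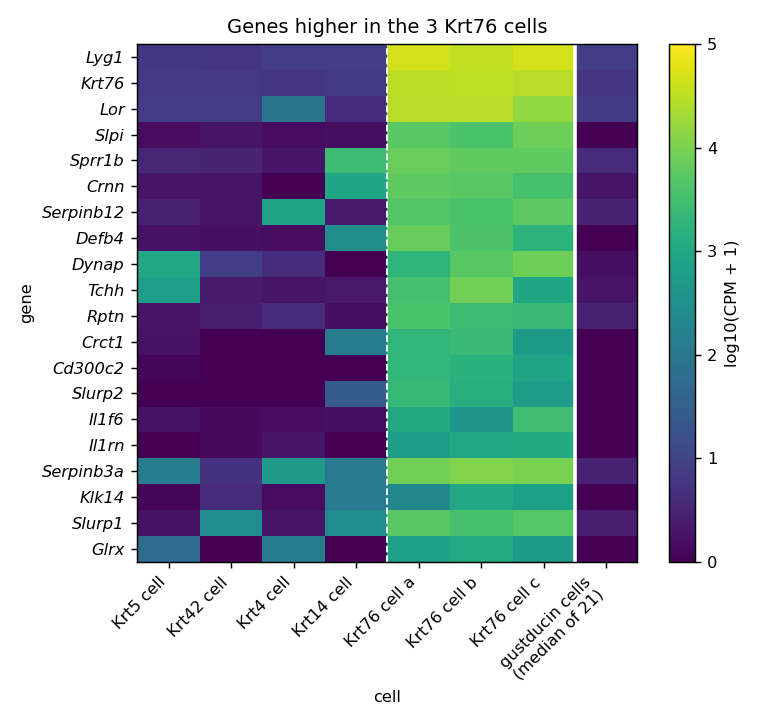
Rows are the 20 named genes higher in the 3 Krt76 cells, columns are the 7 keratinocyte-like cells and the median of the 21 gustducin cells, and colour is log10(CPM + 1). Lyg1, Krt76 and Lor are between 15451 and 47709 CPM in the 3 columns right of the dashed line and at most 86.4 CPM in the 4 left of it.

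Likeness of whole cells was also compared. It was measured as the share of genes at 50 CPM or more in either of 2 thinned cells that reached it in both. The Krt76 cells shared 26.8 to 29.4% with each other, the other 4 cells 28.7 to 33.4% with each other, and pairs across the groups 12.5 to 19.2%. Gustducin cells shared 5.57, 22.7 and 34.5% (lowest, median, highest of 210 pairs) with each other. Keratinocyte-like with gustducin cells shared 4.63, 13.1 and 28.6%. Unequal gene numbers cap this share. Before thinning, the Krt76 cells had 545 to 718 genes at 50 CPM or more and the other 4 had 2079 to 2705. The lower shares across these 2 groups therefore cannot be told apart from the fewer genes of the Krt76 cells. Pairs of cells share members and library, so these ranges are descriptions.

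Gene lists were read at a median of at least 10 CPM on either side, where 511 of 2290 genes (22.3%) were at least 4-fold higher in the keratinocyte-like cells, 625 (27.3%) in the gustducin cells, and the median log2 ratio was -0.52. Of the cornified envelope list, all 14 genes measured of 25 listed were higher in the keratinocyte-like cells, with a median log2 ratio of 6.38. Summed over the list, the 3 Krt76 cells had 82089, 89728 and 67537 CPM and the other 4 had 14716 to 27541 CPM, against at most 1899 CPM in a gustducin cell. Tgm3 was 404 to 14824 CPM in the 7 cells, and Cnfn, cornifelin, ran from 3.34 CPM in the Krt4 cell to 7196 CPM in a Krt76 cell. Proteases and their inhibitors were higher for 11 of 14 measured and lower for 0 (median 3.77). Serpinb3a, a squamous serpin, was 8773, 11358 and 9869 CPM in the Krt76 cells and at most 505 CPM in the other 4. Barrier lipid genes were higher for 8 of 12 and lower for 2 (median 3.55), with Elovl4, a fatty acid elongase, at 168, 610 and 3198 CPM against at most 213 CPM.

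Of the desmosome list, 6 of 11 measured genes were higher and 1 was lower in the keratinocyte-like cells (median 2.58). Perp, a desmosomal membrane protein, was 1421 to 9020 CPM against at most 558 CPM. The epidermal desmoglein Dsg1a had medians of 432 CPM in the keratinocyte-like and 1.09 CPM in the gustducin cells, and the simple-epithelium desmoglein Dsg2 had 1.19 and 321 CPM. The junction list was split, with 4 of 12 higher and 4 lower (median -0.91), and its median was 1.97 without the Krt76 cells. Cldn4 had medians of 98.2 and 9.40 CPM, whereas Cldn3 (0.477 and 144 CPM) and Cldn7 (1.19 and 219 CPM), claudins of tight junctions, went the other way. Epcam had medians of 4.76 CPM in the keratinocyte-like and 766 CPM in the gustducin cells.

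Transcription factors differed as well. Of the epidermal list, 11 of 14 measured factors were higher and 2 lower in the keratinocyte-like cells (median 2.94). Pitx1, a homeobox factor, had medians of 318 CPM in the keratinocyte-like and 2.63 CPM in the gustducin cells. The epithelial ETS factors Ehf and Elf3 had medians of 60.3 and 1.56 CPM and of 2.45 and 549 CPM. Pax9, an oral epithelial factor, was 0.625 CPM in the Krt42 cell and 153 to 1282 CPM in the other 6. Klf4, a factor of suprabasal differentiation, was 1102 to 4027 CPM in the 7 cells but also reached 4797 CPM in a gustducin cell, so its ranges overlapped. Of the type II and tuft factors, 8 of 9 were higher in the gustducin cells (median -4.38, and -3.42 without the Krt76 cells). Pou2f3, which specifies type II taste cells and tuft cells, was at most 29.6 CPM in the 7 cells and had a median of 256 CPM in the 21.

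The taste transduction list was lower in the keratinocyte-like cells for 7 of 8 measured genes (median -6.67) and the tuft list for 11 of 12 (median -4.99). The exception in the tuft list was Cd24a, a GPI-anchored glycoprotein, with medians of 908 CPM in the keratinocyte-like and 5.03 CPM in the gustducin cells. Trpm5 was 2.38 to 9.79 CPM in the 7 cells and 3.79, 1406 and 3689 CPM in the 21. The summed bitter receptors were 0, 4.90 and 9.79 CPM in the 7 cells and 0, 284 and 4075 CPM in the gustducin cells.

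Ribosomal protein genes were higher in the keratinocyte-like cells as a group. Of 77 measured, 25 were at least 4-fold higher and 0 at least 4-fold lower (median 1.68), and the value was 1.72 without the Krt76 cells. Their sum was 71340, 187666 and 209805 CPM in the 7 cells, lowest in the Krt42 cell, and 8871, 54188 and 63663 CPM in the gustducin cells, so the ranges did not overlap. Rplp0 had no overlap (4033 to 8476 CPM against at most 2416 CPM), nor did Rps26, Rpl39, Rps28 and Rps18. Mitochondrially encoded genes were lower for 3 of 15 and higher for 0 (median -1.01), and nuclear oxidative phosphorylation genes had a median of 0.41. Mitochondrial counts enter every CPM value. With mitochondrial and ribosomal RNA counts left out of the totals, the ribosomal protein median was 1.65.

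Detoxification genes were split, with 11 of 21 higher and 7 lower (median 2.53, and -2.58 with the Krt76 cells alone). Gsta4, a glutathione transferase, was 85.7, 1518 and 5111 CPM in the 7 cells and had a median of 2.86 CPM in the 21. Gpx4, the peroxidase of membrane lipids, was at most 25 CPM in the 7 cells and had a median of 241 CPM in the 21. Among the 639 genes with a median of at least 100 CPM in the 7 cells, Aldh3a1 had the widest range of log2(CPM + 10) after Krt13, from 8.33 CPM in the Krt14 cell to 22372 CPM in the Krt42 cell. The heat shock list was split, with 2 of 11 measured genes higher and 3 lower (median -0.53, and 1.60 without the Krt76 cells). Of its members, Hspb1, the small heat shock protein of keratinocytes, had medians of 4121 and 146 CPM and Hsp90aa1 of 9.07 and 298 CPM. Thymosin beta 4 (Tmsb4x), an actin-binding peptide, was 415 to 1140 CPM in the Krt5, Krt42 and Krt4 cells, 7.74 to 11.2 CPM in the other 4, and had a median of 2971 CPM in the gustducin cells.

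**Figure D5:**
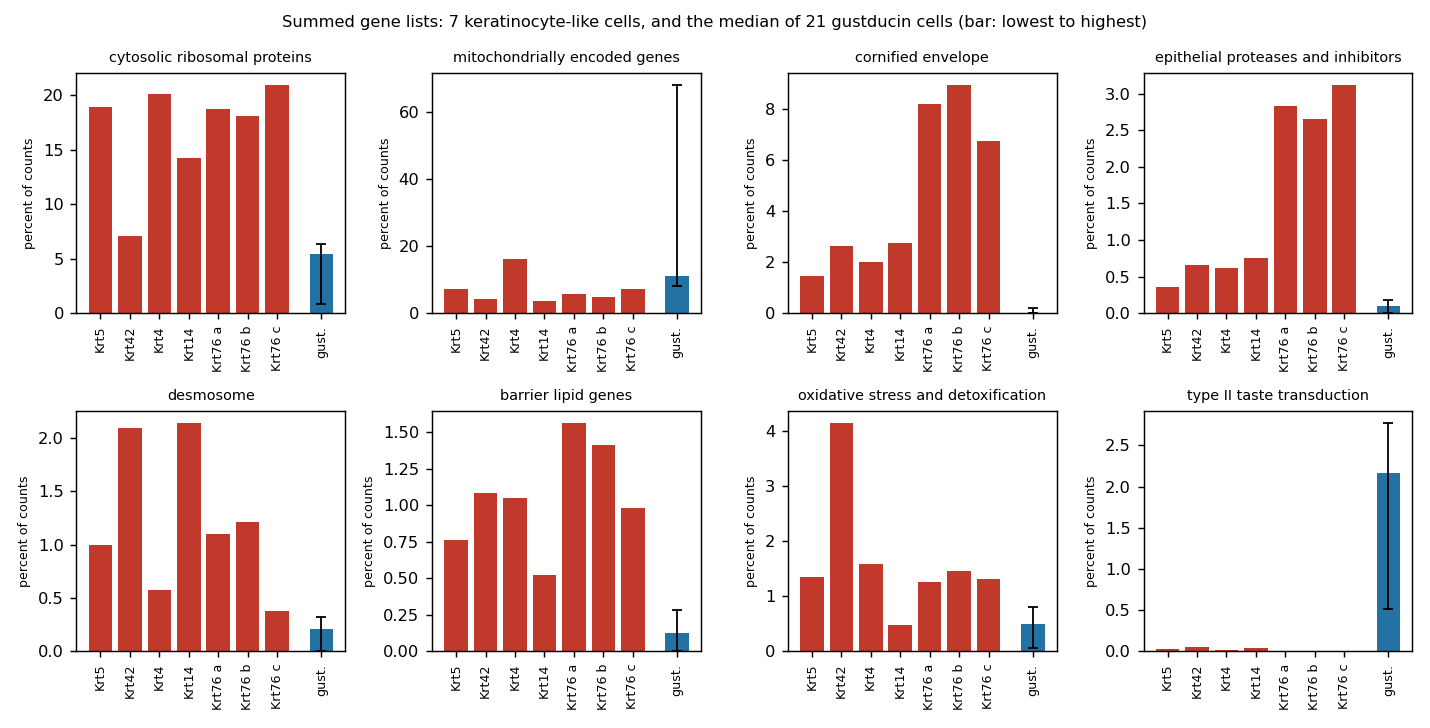
Bars give the percent of each cell's counts in 8 gene lists for the 7 keratinocyte-like cells (red) and the median of the 21 gustducin cells (blue, with a line from lowest to highest); each panel has its own y axis starting at 0. The cornified envelope and protease lists are highest in the 3 Krt76 cells, and the ribosomal protein list is at least 7.13% in each red bar.

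Other cell types were looked for by their markers. No gene of the immune, stromal or nerve lists reached a median of 10 CPM on either side, and the immune sum was at most 5.94 CPM in the 7 cells. The stromal sum was at most 1383 CPM, nearly all of it Dcn in the Krt5 cell. Type I taste cell genes summed to 1290 CPM in 1 Krt76 cell (gustducin median 1175 CPM). Type III genes summed to at most 399 CPM, in the Krt42 cell (gustducin median 751 CPM). Salivary and ciliated markers summed to 421 to 1327 CPM in the Krt5, Krt42, Krt4 and Krt14 cells (gustducin median 604 CPM). Taste stem and progenitor genes were highest in the Krt14 cell (27293 CPM, gustducin median 118 CPM). Of the basal list, Krt5 and Krt14 were high in 1 cell each and Krt5 was 1012 CPM in 1 Krt76 cell, while Itga3 and Itgb1, integrin subunits, had medians of 1.91 and 0.595 CPM in the 7 cells against 159 and 205 CPM in the gustducin cells.

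Genes of each side were also counted at low levels on the other. Genes of at least 1000 CPM in the whole library and a log2 ratio of at least 5 in size were taken. For 13 such genes of the keratinocyte-like cells, the median gustducin cell held 0.408 to 1.09% of the library's own level. For 19 such genes of the gustducin cells, the median keratinocyte-like cell held 0.292 to 0.874%. Krt6a was 33.8, 49.3 and 108 CPM in the gustducin cells, and Gnat3, with a median of 9.92 CPM in the 7 cells, gave the lowest of these shares. The limit on the log2 ratio itself keeps these shares small, and genes that the rule used are among those taken. The source of the low levels was not tested. Among genes outside these sets, single gustducin cells reached 304 CPM of Krt42, 389 CPM of Lor and 222 CPM of Lyg1. The medians of these genes over the gustducin cells were 16.3, 6.90 and 7.58 CPM.

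The promoters shown above were compared with all 32851 RefSeq windows of 250 bases before to 50 after a start. The AP-1 motif was in 8 of 28 windows (28.6%) of the 24 matched keratinocyte-like genes with no overlap, in 1 of 11 (9.09%) of the 9 matched gustducin-cell genes, and in 7.81% of all windows. The TATA motif was in 28.6, 9.09 and 13.6% of the same sets. The octamer motif of POU factors (ATGCNAAT, either strand) was in 0, 9.09 and 3.15%. Krtdap had the AP-1 motif at -81 and the TATA motif at -30, and Lor had them at -48 and -27, counted from the start, and Gnat3 had none of the 3 motifs. Windows of 1 gene overlap, and a match is a run of letters and no evidence of binding.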

How the data were processed

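The authors deposited raw counts (whole numbers, a row per gene and a column per barcode) for 1 fungiform (FP) and 1 circumvallate (CV) library of mouse taste tissue. Reads were aligned with Bowtie2 2.3.4.1 to mouse reference RNA, per the series design, and cutadapt 2.10, Seurat 2.3.4 and build mm10 are named in the submitters' processing notes. Counts were also adjusted by distribution-based error correction, per the series design, and whether molecular barcodes were collapsed is not given in the sources used here. With totals of up to 4078945 counts, PCR copies may be included, and intervals cover counting error only.

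Counts were scaled to CPM per cell over all genes. Medians over cells were compared on log2(CPM + 10), among genes with a median of at least 50 CPM on either side (10 CPM for lists). Cells of 1 library are not replicates, so no test was run. The members and lists were chosen with earlier results of these data known. Genes were named by rule: up to 15 per direction with no overlap between sides and the largest ratio, the list members of highest median, the 10 most variable genes among the 639 with a median of at least 100 CPM in the keratinocyte-like cells, and markers. Single-cell genes, keratin names and paralog pairs were chosen after their values were seen. Cells were thinned to 193718 counts for likeness and genes detected. Motifs were searched in RefSeq promoter windows (GRCm38.p6), and gene positions are from GENCODE M21. Sprr3 is not listed in the FP table. The calculation was tested on simulated Poisson counts with known changes. Simulated cells of a side differed only by depth and counting error, so the test does not cover the variation of real cells. Python 3.11.15, numpy 2.4.6, pandas 2.3.3, scipy 1.17.1 and matplotlib 3.10.9 were used. Hashtag libraries were not analysed here, and a few genes are not reported here.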

Additional observations from a re-analysis of the deposited data

Results flagged for a closer look

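In the circumvallate library, which the choice of the 7 cells did not use, 1 barcode of 61 exceeded the keratin limit, with Krt13 plus Krt6a of 4811 CPM. All of it was Krt6a (757 of the 761 Krt6a counts of that library), and Krt13 and Gnat3 were at 0 counts. The barcode also held Ly6d (605 counts, 3845 CPM) and Fabp5 (292 counts, 1856 CPM), 2 of the genes found in all 7 fungiform cells. Krtdap had 6 counts there, and Dmkn and Perp had 0. It had 157346 counts, 526 genes and 78.0% mitochondrial counts. The highest of the 32 circumvallate gustducin cells had 15.9 CPM of both keratins.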

How the results depend on the processing

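Over 22 alternatives, some of which change the genes that pass the limit of 50 CPM, 72 of 88 gene counts stayed within 1.5 times. Asking the keratinocyte-like cells for 10000 CPM of the keratins, or for more than 500 genes, kept the same 7 cells. Those 2 alternatives could therefore change no value, and they are among the counts that stayed. The 437 genes higher in keratinocyte-like cells (30% of 1455) became 185 (12.7%) with a pseudocount of 50 CPM. Against the circumvallate gustducin cells they became 676 (58.6% of 1153). Without the 3 Krt76 cells they became 1226 (53% of 2313), and with only those 247 (20.7% of 1195). Leaving out the Krt76 cells, or using them alone, was chosen after seeing the data. The 521 higher in gustducin cells (35.8%) became 214 (14.7%) with that pseudocount and 236 (20.5%) against circumvallate cells. Without the Krt76 cells they became 302 (13.1%). They became 1535 (34.2% of 4494) with means over cells and 1364 (27.3% of 4990) with pooled counts. The 33 genes without overlap (of 1455) became 83 of 2313 without the Krt76 cells and 106 of 1195 with only those. Leaving out each cell in turn gave 34 to 51 of 1427 to 1648 genes (51 of 1430 without the Krt42 cell). The 13 (of 1455) became 8 of 1455 after thinning and 29 of 1622 under 50% mitochondrial counts. They became 1 of 1153 against circumvallate cells and 47 of 1195 with only the Krt76 cells. The causes were not tested. Of 746 list medians, 595 stayed within the spread over the 7 cells, and 47, in 13 of 34 lists, changed sign. The 595 include the 2 alternatives that kept the same cells. They also include the filter of 10 CPM, which the lists already used. Of those of at least 2 in size, S100 was -1.06 with means and -0.17 with pooled counts, Notch 1.59 without the Krt76 cells, annexins 0.72 against circumvallate cells and detoxification -2.58 with only the Krt76 cells. Depth limits low values in the Krt76 cells, where 1 count is worth 2.81 to 4.96 CPM, and in the shallowest gustducin cells. No paired analysis was possible because there is 1 library per papilla and no test.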
